A study of Mus musculus with 46 samples.

Results

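Dividing microglia of the first postnatal week were compared with the resting microglia of the adult mouse brain by RNA sequencing. The comparison used 4 of the 46 samples of the series, chosen by their labels alone: 2 RNA libraries of Ki67-positive microglia at postnatal day 8 (PND8) and 2 of adult microglia. It ran over all 20999 genes of the deposited count table, of which 12230 had enough counts to be tested. PND8 cells came from male C57BL/6 mice of 8 days that carried a Ki67-rfp reporter, received no treatment and were sorted for the reporter. Adult cells came from untreated wild-type male C57BL/6 mice of 90 days, are labelled Ki67-negative and carried no reporter. All cells were kept on ice with butyrate, which inhibits histone deacetylases, and flavopiridol, which blocks transcription, and were sorted by CD11b, CD45 and CD44, with 200000 microglia per library. The labels call the replicates independent biological samples, without saying how many animals each held. PND8 Ki67-negative cells of the same reporter line and age, and Ki67-positive cells repopulating the brain, served as points of reference. The repopulating cells came from Ki67-rfp mice of 75 days after 17 days of PLX5622, a CSF1R inhibitor that depletes microglia, and 3 days of recovery. For a histone mark, H3K27ac, cells were from wild-type males of the same strain, labelled as untreated, of 8 days for PND8 and of 60 and 65 days for adult, and were fixed before antibody staining for Ki67. The headers of the adult H3K27ac tables, and not those of PND8, carry the word Vehicle, which the labels do not mention, so a vehicle and age cannot be told apart for that mark. Age, Ki67 status, genotype (reporter or wild type) and the code in the deposited headers differed together between the PND8 and adult RNA groups and cannot be told apart.

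Microglia are the macrophages of the brain. They enter the brain in the embryo, multiply in the first postnatal weeks and then rest, renewing themselves slowly in the adult. Ki67, encoded by Mki67, is a nuclear protein that cycling cells hold and resting cells lack. In resting cells the genes of mitosis are kept silent by a repressor complex that acts through CHR elements in their promoters. Genes of DNA replication are held down through E2F sites. Microglia of the neonatal white matter are known for Igf1, Spp1, Gpnmb and Lpl, whereas adult microglia are known for P2ry12, Tmem119 and a dependence on TGF-beta.

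The 4 libraries held 8219620 to 8816931 counts, with 13557 and 13566 genes detected in the adult libraries and 14137 and 14125 in the PND8 libraries. Levels are given as CPM, counts per 1000000 after TMM scaling of library sizes, and 3 counts corresponded to 0.33 to 0.367 CPM. The 9 defining microglia markers summed to 9025 and 9156 CPM in adult and 7673 and 7568 CPM in PND8 libraries, so the labelled cell type was present in every library. Markers of several other cell types differed between the groups or within them. Border macrophage markers summed to 65.1 and 80.4 CPM in adult and 859.6 and 848.3 CPM at PND8, nearly all of it Mrc1. Erythroid markers summed to 0.463 and 7.45 CPM in adult and 61.5 and 23.4 CPM at PND8. Monocyte and neutrophil markers ran the other way, with 251.6 and 75.3 CPM in adult and 11.7 and 12.2 CPM at PND8, and neuronal markers stayed under 7 CPM in every library. Astrocyte markers split the PND8 libraries, with 69.0 CPM in replicate 1 and 379.4 CPM in replicate 2 beside 242.4 and 253.8 CPM in adult. The split rests on Slc1a3 alone, which had 38.7 and 361.8 CPM of these PND8 sums. Markers of the oligodendrocyte lineage summed to 213.6 and 213.5 CPM in adult and 189.7 and 160.4 CPM at PND8, and those of endothelial cells and pericytes to 86.2 and 84.3 CPM and to 52.5 and 51.7 CPM. Lymphocyte markers summed to 26.0 and 26.5 CPM in adult and 47.8 and 48.8 CPM at PND8. Their part in the differences below was not tested, and in bulk RNA fewer cells of a type and less RNA per cell cannot be told apart.

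In edgeR's quasi-likelihood fit, with p-values adjusted by the method of Benjamini and Hochberg, 6049 of the 12230 genes (49.5%) were called at an adjusted p under 0.05. Of these, 3073 (25.1%) were higher and 2976 (24.3%) lower at PND8, so the groups differed over close to every other gene tested, and the counts over gene lists below are to be read against these 2 shares. Most of the differences were small, with 1895 genes higher and 2076 lower by a log2 fold change under 1. Large differences were mostly rises: 387 called genes (3.16%) had a log2 fold change of at least 3 and 104 (0.850%) of at most −3. In 9632 genes (78.8%) both libraries of one group lay above both of the other, a share against which the separations of single genes below are to be read.

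**Figure D1:**
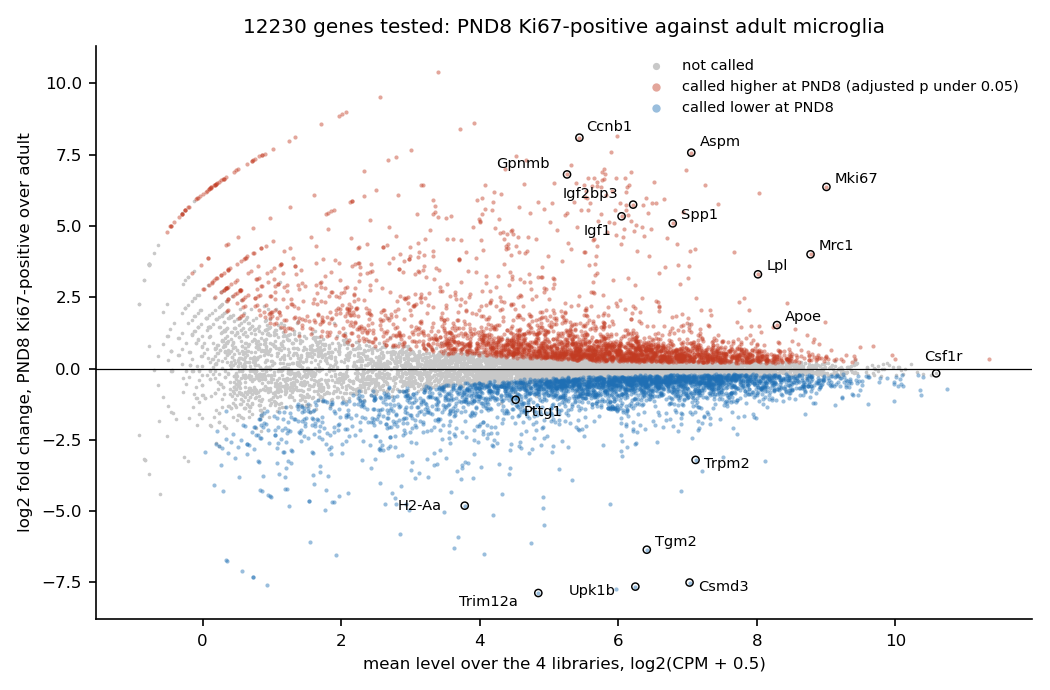
Log2 fold change from adult to PND8 Ki67-positive microglia (y axis) against the mean level of the 4 libraries as log2(CPM + 0.5) (x axis) for the 12230 genes tested, with 3073 genes called higher in red, 2976 called lower in blue and the rest grey. More points lie beyond 3 above the zero line than below it, 387 called genes against 104.

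Genes of G2 and mitosis made the widest gap. Of 40 such genes, all tested, 39 rose and 1 fell, with a median log2 fold change of 5.51 beside 0.0018 over all genes tested. Their summed level was 256 and 258 CPM in the adult libraries and 5860 and 6802 CPM in the PND8 libraries. Mki67 (NM_001081117, chr7:135689788-135716379, minus strand in mm10), whose reporter was the basis of the sort, had 13.4 and 11 CPM in adult and 919.6 and 1107 CPM in PND8 cells. It therefore matched the labels, with a log2 fold change of 6.37 (SE 0.198, adjusted p 1.35e-10). Top2a, the topoisomerase that untangles chromosomes before division (NM_011623, chr11:98992947-99024189, minus strand), had 4.86 and 9.78 CPM in adult and 461 and 567 CPM at PND8, a change of 6.14 (SE 0.277, adjusted p 2.32e-09). Aspm, a spindle pole protein (NM_009791, chr1:139454773-139494088, plus strand), went from 1.16 and 1.59 CPM to 216 and 310.0 CPM, a change of 7.57 (SE 0.305, adjusted p 8.83e-10). The spindle checkpoint kinase Bub1 had 0.694 and 0.489 CPM in adult and 116 and 118 CPM at PND8, a change of 7.59 (SE 0.377, adjusted p 5.11e-09). All 4 genes were low in both adult libraries and high in both PND8 libraries, with no overlap between the groups.

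Among called genes with a PND8 mean of at least 10 CPM and no overlap between the groups, the 12 largest rises were Ccnb1, Cdkn3, Pif1, Bub1, Aspm, Depdc1a, Depdc1b, Fam83d, Sapcd2, 2610318N02Rik, Gm1673 and Apoc1, of which all but the last 3 are known from dividing cells. Gm1673 had 0 counts in both adult libraries and 193 at PND8, at least 61.1-fold higher when the floor is 3 counts over the adult group. Several of these rises rested on a handful of adult counts. Ccnb1, the cyclin that starts mitosis, had 0.463 and 0.122 CPM in adult and 81.2 and 89.7 CPM at PND8. Its log2 fold change of 8.10 (SE 0.357, adjusted p 2.01e-09) became 9.29 without adult replicate 1 and 7.49 without adult replicate 2. Nuf2, part of the kinetochore, had 0.347 and 0.733 CPM in adult and 75.1 and 81.6 CPM at PND8, a change of 7.16 (SE 0.306, adjusted p 1.54e-09) that was 7.76 without adult replicate 2. Cdkn3 is a phosphatase that acts on cyclin-dependent kinases (NM_001360041, chr14:46760541-46771521, plus strand), and 1 count in the 2 adult libraries stood against 444 at PND8. That is a ratio of 421 (95% interval 75.3 to 16700), covering counting error only, and the fitted value of 8.40 was 7.52 and 10.75 without adult replicates 1 and 2. Depdc1b, a gene of mitotic cells, had 1 adult count and 515 at PND8, a ratio of 489 (95% interval 87.3 to 19300), and its fitted 8.62 was 10.96 and 7.81 without adult replicates 1 and 2. The DNA helicase Pif1 had 0.116 and 0.733 CPM in adult and 108 and 141 CPM at PND8, and its log2 fold change of 8.17 was 7.38 without adult replicate 1 and 9.90 without adult replicate 2. Without adult replicate 1 and adult replicate 2 in turn, Depdc1a had values of 6.77 and 10.00 (all libraries 7.66), and Fam83d, a spindle protein, 6.47 and 11.58 (all libraries 7.46). In the same order Sapcd2 had 6.31 and 11.73 (all libraries 7.31) and 2610318N02Rik 9.77 and 6.62 (all libraries 7.43). In these genes the size of the rise depended on which adult library was used. Apart from Nuf2, they were chosen with both PND8 libraries above both adult libraries, which fixed the direction beforehand.

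The mitosis gene that fell was Pttg1, or securin, which holds sister chromatids together until anaphase. It had 29 and 32 CPM in adult and 13.1 and 15.5 CPM at PND8, a change of −1.09 (SE 0.174, adjusted p 0.000184). The PND8 Ki67-negative libraries lay at 15.7 and 20.7 CPM and the repopulating Ki67-positive libraries at 24.8 and 28.1 CPM. H3K27ac around its start was 109 and 92.7 tags per 10000000 at PND8 and 74.7 and 114 in adult.

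The PND8 Ki67-negative libraries, which share age, line and treatment with the Ki67-positive ones, lay between the 2 groups for mitosis genes. Mki67 was at 242 and 282 CPM there, Aspm at 25.4 and 33 CPM and Ccnb1 at 12.6 and 18.2 CPM. Of the 40 mitosis genes, 36 were higher in Ki67-positive than in Ki67-negative PND8 cells, where 2.75% of all genes tested were, and 0 were lower, with a median of 1.53. Against adult these same Ki67-negative cells had 39 of the 40 called higher and Pttg1 called lower, where 46.8% of all genes were called. The comparisons share libraries, so these counts are not independent of each other. Same-numbered Ki67-positive and Ki67-negative PND8 libraries deviated together (r = 0.344 across genes). With the replicate number as a block for the PND8 libraries, 1138 genes were called between the Ki67 states in place of 721, 38 of the 40 mitosis genes among them.

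Genes of DNA replication also rose, but by less and with another order between the PND8 groups. Of 26 genes of origin licensing and the replication fork, 25 rose and 0 fell, with a median log2 fold change of 1.88. Cell type markers aside, each list with 0 members called in a direction against adult also had 0 with an unadjusted p under 0.05 by edgeR. DESeq2 called 0 in that direction as well. The same lists had 0 such calls under the other alternatives too, except for the neonatal and disease-associated list described further on. Mcm5, a subunit of the replicative helicase (NM_001302540, chr8:75109509-75128439, plus strand), had 11.8 and 13.2 CPM in adult and 104 and 111 CPM at PND8, a change of 3.11 (SE 0.216, adjusted p 9.82e-08). Cdc45, a part of the active helicase, had 1.62 and 1.83 CPM in adult and 15.9 and 16.1 CPM at PND8, a change of 3.20 (SE 0.326, adjusted p 3.54e-06). Mcm10, which activates the helicase, had 0.925 and 0.611 CPM in adult and 30.7 and 29.4 CPM at PND8, a change of 5.26 (SE 0.362, adjusted p 8.58e-08), and Pole, a DNA polymerase subunit, 4.74 and 2.81 CPM in adult and 59.3 and 57.6 CPM at PND8, a change of 3.94 (SE 0.255, adjusted p 4.6e-08). Pcna, the polymerase clamp, was already at 30.3 and 33 CPM in adult cells and reached 60.1 and 62.8 CPM, a change of 0.96 (SE 0.177, adjusted p 0.000603). Gins4 was the member not called, with 15.6 and 20.3 CPM in adult and 21 and 22.9 CPM at PND8 (log2 fold change 0.29, SE 0.169, adjusted p 0.168).

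Against their Ki67-negative neighbours of the same age, the Ki67-positive cells held less of these transcripts. Of the 26 licensing genes 19 were lower in Ki67-positive than in Ki67-negative PND8 cells, where 3.15% of all genes were, and 0 were higher, with a median log2 fold change of −0.83. Mcm5 was at 183 and 198 CPM in the Ki67-negative libraries, a difference of −0.82 (SE 0.175, adjusted p 0.0125), and Pole at 123 and 113 CPM, a difference of −1.01 (SE 0.178, adjusted p 0.00368). Most mitosis genes were thus highest in Ki67-positive cells, and most licensing genes in Ki67-negative cells of the same age. At an unadjusted p under 0.05 no mitosis gene was lower, and no licensing gene higher, in the Ki67-positive cells.

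Nucleotide synthesis followed replication. Of 19 genes tested, 16 rose and 0 fell, with a median of 0.745. Rrm2, the subunit of ribonucleotide reductase that limits deoxynucleotide supply, had 1.5 and 1.34 CPM in adult and 89.4 and 93.3 CPM at PND8, a change of 5.99 (SE 0.314, adjusted p 7.97e-09). Its partner Rrm1 had 31.7 and 28.2 CPM in adult and 148 and 163 CPM at PND8, a change of 2.38 (SE 0.175, adjusted p 1.67e-07). Thymidine kinase (Tk1) and thymidylate synthase (Tyms), both makers of thymidylate, rose by 2.82 (SE 0.21) and 2.45 (SE 0.197). Gart and Umps, of general purine and pyrimidine synthesis, were among the members not called, with log2 fold changes of 0.27 (SE 0.113) and 0.13 (SE 0.151).

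The promoters of mitosis and licensing genes differed in CHR and E2F letters but not in CCAAT letters. A stretch of 300 bases, from 250 before to 50 after the start of the gene, was taken from RefSeq for 9434 of the tested genes (GRCm38.p6). It was searched on both strands for the CHR core (TTTGAA), the CCAAT box (CCAAT), E2F sites (TTTCCCGC or TTTGGCGC) and the E-box of the MITF and TFE family (TCACGTGA), with matches of different motifs allowed to overlap. The CHR letters stood in 24 of 33 mitosis promoters (72.7%) beside 11.6% of all tested promoters, and in 84 of 275 promoters of called genes with a log2 fold change of at least 3 (30.5%). CHR letters also stood in 4 of 18 licensing promoters (22.2%) and 1 of 16 nucleotide synthesis promoters (6.25%). Outside the cell cycle lists they stood in 6 of 15 promoters of CSF receptors and the BCL2 family (40.0%). E2F letters stood in 8 of 18 licensing promoters (44.4%) beside 3.21% of all, and in 0 of the 33 mitosis promoters. Nucleotide synthesis had them in 1 of 16 promoters (6.25%). CCAAT letters, present in 39.1% of all, stood in 25 of 33 mitosis (75.8%) and 14 of 18 licensing promoters (77.8%). A match is a description of the letters and not a shown site of binding.

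A promoter of each kind is printed 5′ to 3′ along the strand of its gene, with every match of the motifs in capitals: Cdkn3 and Top2a for mitosis, Mcm5 for replication, and Gla, a lysosomal enzyme described further on, for the E-box. In capitals, TTTGAA and TTCAAA are the CHR core on either strand, CCAAT and ATTGG the CCAAT box, GCGCCAAA an E2F site read on the other strand and TCACGTGA the E-box. The windows are chr14:46760291-46760590, plus strand for Cdkn3, chr11:99024140-99024439, minus strand for Top2a, chr8:75109259-75109558, plus strand for Mcm5 and chrX:134600956-134601255, minus strand for Gla.
Cdkn3: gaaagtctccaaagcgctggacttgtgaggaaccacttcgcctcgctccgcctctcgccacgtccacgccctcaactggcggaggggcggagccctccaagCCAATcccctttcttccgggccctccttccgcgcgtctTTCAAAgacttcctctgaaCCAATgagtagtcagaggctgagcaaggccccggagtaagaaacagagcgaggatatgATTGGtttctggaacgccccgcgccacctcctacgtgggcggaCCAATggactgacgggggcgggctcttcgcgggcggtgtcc
Top2a: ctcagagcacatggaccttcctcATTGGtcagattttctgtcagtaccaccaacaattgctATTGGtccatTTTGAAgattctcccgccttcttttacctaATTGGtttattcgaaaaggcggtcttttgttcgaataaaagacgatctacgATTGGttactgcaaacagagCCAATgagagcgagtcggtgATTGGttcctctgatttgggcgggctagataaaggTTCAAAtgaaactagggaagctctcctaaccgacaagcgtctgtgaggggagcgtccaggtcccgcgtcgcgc
Mcm5: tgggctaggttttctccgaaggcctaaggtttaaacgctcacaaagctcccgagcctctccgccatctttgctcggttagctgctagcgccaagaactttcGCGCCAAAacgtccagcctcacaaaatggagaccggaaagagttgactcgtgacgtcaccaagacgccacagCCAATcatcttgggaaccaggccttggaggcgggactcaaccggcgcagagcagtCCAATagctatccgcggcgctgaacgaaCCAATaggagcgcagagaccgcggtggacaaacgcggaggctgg
Gla: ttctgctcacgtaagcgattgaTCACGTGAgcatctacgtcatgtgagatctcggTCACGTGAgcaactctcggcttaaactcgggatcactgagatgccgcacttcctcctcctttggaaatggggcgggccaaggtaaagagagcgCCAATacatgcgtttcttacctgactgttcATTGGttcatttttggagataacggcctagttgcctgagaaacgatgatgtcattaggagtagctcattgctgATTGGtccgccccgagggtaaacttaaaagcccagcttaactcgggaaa
The Cdkn3 window holds 1 CHR match, which begins 111 bases before the start, between CCAAT boxes. Top2a holds 2 CHR matches, at 179 and 23 bases before the start, and 6 CCAAT boxes. Mcm5 holds an E2F match at 149 bases before the start and 3 CCAAT boxes, and no CHR letters in this window. Gla holds 2 E-boxes, at 228 and 195 bases before the start.

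Control of the G1 phase changed in both directions. Of 26 genes tested of 27 listed, 17 rose and 3 fell, with a median of 1.17. E2f7, a repressor that E2F factors switch on, had 0.925 and 0.978 CPM in adult and 38 and 35.6 CPM at PND8, a change of 5.25 (SE 0.282, adjusted p 9.79e-09). Its relative E2f8 had 4.16 and 4.03 CPM in adult and 98.8 and 88.9 CPM at PND8, a change of 4.51 (SE 0.219, adjusted p 4.47e-09). Cdkn2c, an inhibitor of the kinases CDK4 and CDK6, rose from 5.2 and 3.67 CPM to 137 and 159 CPM, a change of 5.05 (SE 0.234, adjusted p 2.93e-09). Cdkn2a, the locus of 2 tumour suppressors, had 0.347 and 0.122 CPM in adult and 9.14 and 9.71 CPM at PND8, a change of 5.23 (SE 0.487, adjusted p 1.55e-06) that was 6.11 without adult replicate 1. Cdkn1c, an imprinted cell cycle inhibitor, fell from 13.2 and 13.8 CPM to 3.63 and 3.7 CPM (log2 fold change −1.88, SE 0.309, adjusted p 0.00024). E2f3, an activator of replication genes, fell from 173 and 168 CPM to 81.9 and 89 CPM (log2 fold change −0.99, SE 0.0921, adjusted p 1.48e-06), and Ccnd3, a D-type cyclin, fell from 66.2 and 72.5 CPM to 42.8 and 39.2 CPM (log2 fold change −0.76, SE 0.132, adjusted p 0.000392). Ccnd1, another D-type cyclin, was not called, at 261 and 218 CPM in adult and 253 and 288 CPM at PND8.

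Chromatin genes that accompany replication rose with it. Of 22 tested, 16 rose and 1 fell, with a median of 1.49. Uhrf1, which guides maintenance DNA methylation, had 3.35 and 2.2 CPM in adult and 96.5 and 104 CPM at PND8, a change of 5.16 (SE 0.277, adjusted p 9.79e-09). Lmnb1, a protein of the nuclear lamina, had 10.5 and 17.8 CPM in adult and 239 and 256 CPM at PND8, a change of 4.13 (SE 0.253, adjusted p 2.77e-08). The histone chaperone Chaf1a had 0.81 and 2.81 CPM in adult and 44.3 and 43.8 CPM at PND8, a change of 4.61 (SE 0.346, adjusted p 2.02e-07), 3.96 without adult replicate 1 and 5.74 without adult replicate 2. The histone variant gene H2afx, not in the list but among the 8 largest gains in deposited TPM, had 15.8 and 15.9 CPM in adult and 176 and 199 CPM at PND8, a change of 3.56 (SE 0.218, adjusted p 2.77e-08). The fall was in Ezh1, the polycomb methyltransferase of resting cells, from 125 and 128 CPM to 71.4 and 65.2 CPM (log2 fold change −0.89, SE 0.111, adjusted p 2.27e-05). The de novo DNA methyltransferase Dnmt3a was not called, at 428 and 448 CPM in adult and 399.7 and 432 CPM at PND8.

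Genes of cell growth rose more evenly and by less. Of 20 ribosome biogenesis genes 12 rose and 0 fell (median 0.467), and of 22 genes of the respiratory chain and ATP synthase 19 rose and 0 fell (median 0.595). Ncl, a nucleolar protein of ribosome assembly, had 137 and 159 CPM in adult and 305 and 319 CPM at PND8, a change of 1.07 (SE 0.109, adjusted p 3.42e-06). Npm1, another, had 61.9 and 64 CPM in adult and 125 and 135 CPM at PND8, a change of 1.05 (SE 0.104, adjusted p 2.72e-06). Cox6c, a subunit of cytochrome oxidase, had 12 and 11.4 CPM in adult and 33 and 29.1 CPM at PND8, a change of 1.41 (SE 0.171, adjusted p 1.75e-05). Between Ki67-positive and Ki67-negative PND8 cells, where 721 genes (5.90%) were called, edgeR called 0 members of either list, with median differences of 0.089 and 0.117. At an unadjusted p under 0.05, 1 ribosome gene was higher there and 0 respiratory genes differed. Ribosome biogenesis separated PND8 from repopulating Ki67-positive cells, with 15 of 20 members higher at PND8 (14.2% of all genes were) and 0 lower, and 0 members of the respiratory list differed there, also at an unadjusted p under 0.05.

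Of 20 genes of glycolysis and glucose uptake 9 rose and 4 fell, with a median of 0.441. The 4 falls became 2 without PND8 replicate 1, and 1 without PND8 replicate 2 or adult replicate 2. The enzymes Pgk1, Tpi1, Pkm and Ldha rose by 1.36 (SE 0.179), 1.06 (SE 0.132), 0.90 (SE 0.119) and 0.82 (SE 0.127) on the log2 scale. Hk1, the hexokinase at the entry of the pathway, fell from 59.8 and 55.2 CPM to 33.9 and 29.1 CPM (log2 fold change −0.87, SE 0.123, adjusted p 6.99e-05). The glucose transporter gene Slc2a1 fell from 78.9 and 85.9 CPM to 64.8 and 62.6 CPM (log2 fold change −0.37, SE 0.103, adjusted p 0.0092), a call that was lost without PND8 replicate 2 or adult replicate 2.

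Sterol synthesis rose in 18 of 23 genes and fell in 1, with a median of 1.04. Sqle, a step early in the branch to sterols, had 6.94 and 6.84 CPM in adult and 37.4 and 43 CPM at PND8, a change of 2.54 (SE 0.253, adjusted p 2.91e-06). Stard4, which carries cholesterol between membranes, had 5.67 and 5.74 CPM in adult and 25.4 and 32.4 CPM at PND8, a change of 2.34 (SE 0.243, adjusted p 4.23e-06). Against repopulating Ki67-positive cells, 10 of the 23 genes were lower at PND8 (16.7% of all genes were) and 1 was higher. The fall was in Tm7sf2, from 21.3 and 24 CPM to 16.5 and 12.8 CPM (log2 fold change −0.62, SE 0.175, adjusted p 0.00966), a call that was lost without PND8 replicate 2 or adult replicate 2. CCAAT letters stood in 14 of 15 sterol promoters (93.3%).

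**Figure D2:**
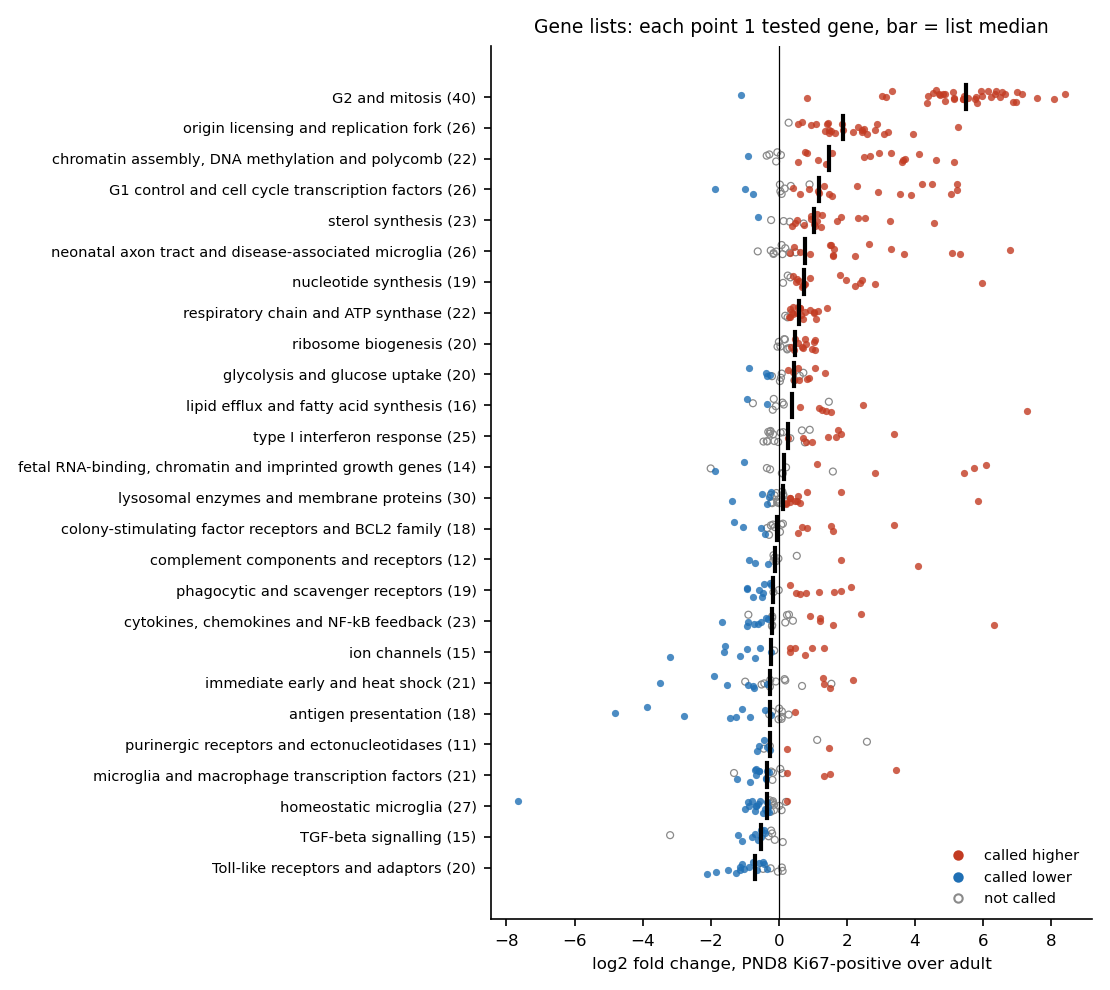
Log2 fold change from adult to PND8 Ki67-positive microglia (x axis) of each tested gene in 26 lists (y axis, number tested in brackets), with called genes filled and the list median as a bar. Medians run from 5.51 for G2 and mitosis to −0.69 for Toll-like receptors and their adaptors.

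Genes known from microglia of neonatal axon tracts and from disease-associated microglia rose in 16 of 26 cases and fell in 0, with a median of 0.768. Falls were called in 3 of them when only the 4 libraries compared were fitted, in 2 with no filter on low counts, and in 1 with the replicate number as a block or without PND8 replicate 1. Igf1, a growth factor that supports neurons and oligodendrocytes (NM_010512, chr10:87859052-87937047, plus strand), had 3.35 and 2.93 CPM in adult and 120.4 and 136 CPM at PND8, a change of 5.34 (SE 0.179, adjusted p 1.89e-10). Gpnmb, a membrane glycoprotein of lysosomes, had 0.463 and 0.855 CPM in adult and 72 and 77.9 CPM at PND8, a change of 6.81 (SE 0.35, adjusted p 6.37e-09). Spp1, which encodes the secreted protein osteopontin, had 6.48 and 5.99 CPM in adult and 207 and 219.8 CPM at PND8, a change of 5.09 (SE 0.196, adjusted p 5.99e-10). Lpl, which releases fatty acids from lipoproteins, had 48.5 and 46.3 CPM in adult and 381 and 557 CPM at PND8, a change of 3.31 (SE 0.224, adjusted p 7.49e-08). All 4 genes were higher in both PND8 libraries than in either adult library. Between the Ki67 states of PND8, 1 of the 26 genes was called higher and 1 lower. Igf1 was at 145 and 161 CPM in the Ki67-negative libraries, a difference of −0.26 (SE 0.121, adjusted p 0.256), and Spp1 at 238 and 279.7 CPM, a difference of −0.28 (SE 0.14, adjusted p 0.288), neither of which was called. Against repopulating Ki67-positive cells, 15 of the 26 genes were higher at PND8 and 5 lower, where 14.2% and 16.7% of all genes were, and in those cells 11 rose and 9 fell against adult. In the repopulating Ki67-positive libraries Igf1 was at 1.27 and 1.15 CPM, a difference of 6.70 (SE 0.211, adjusted p 1.34e-10), and Gpnmb at 0.347 and 0.864 CPM, a difference of 6.98 (SE 0.363, adjusted p 1.4e-08). Trem2, the receptor on which the disease-associated state depends, was not called, with 303 and 309 CPM in adult and 276 and 273 CPM at PND8.

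Lipid carrier genes rose with them. Apoe, the main lipid carrier of the brain (NM_001305843, chr7:19696244-19699188, minus strand), had 149 and 173 CPM in adult, 482 and 446 CPM at PND8 and, in repopulating Ki67-positive cells, 52 and 66.9 CPM. It rose by 1.53 (SE 0.118, adjusted p 2.59e-07) against adult and differed by 2.97 (SE 0.128, adjusted p 2.45e-09) from repopulating cells. It holds over 2 counts per base, where the cap of 3 tags per position in the deposited counting can hold a value down. Apoc1, its neighbour in the genome, had 1 count in the 2 adult libraries and 207 at PND8, a ratio of 196 (95% interval 34.9 to 7800), with fitted values of 9.64 and 6.49 without adult replicates 1 and 2. Plin2, which coats lipid droplets, had 23.8 and 25.1 CPM in adult and 134 and 139.5 CPM at PND8, a change of 2.48 (SE 0.132, adjusted p 8.76e-09). The lipid efflux pumps Abca1 and Abcg1 were not called, with log2 fold changes of 0.11 (SE 0.159) and −0.17 (SE 0.174). Over the 16 genes of lipid efflux and fatty acid synthesis 7 rose and 2 fell, among them Mylip, a ubiquitin ligase, from 433 and 432 CPM to 217 and 235 CPM (log2 fold change −0.94, SE 0.0808, adjusted p 7.5e-07).

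Of 20 listed genes of fetal growth, which act in early development, 14 were tested, 5 rose and 2 fell, beside 25.1% and 24.3% of all genes. The 5 rises became 3 without PND8 replicate 1, adult replicate 1 or adult replicate 2. Igf2bp3, an RNA-binding protein of fetal tissue (NM_023670, chr6:49085218-49214954, minus strand), had 2.54 and 2.81 CPM in adult and 129 and 160.2 CPM at PND8, a change of 5.75 (SE 0.197, adjusted p 1.89e-10). It was also higher in Ki67-positive than in Ki67-negative PND8 cells, which had 80.2 and 81.6 CPM, by 0.84 (SE 0.133, adjusted p 0.00189). The repopulating Ki67-positive libraries had 4.63 and 6.91 CPM. Lin28b, which blocks maturation of let-7 miRNAs, had 1 count in adult and 89 at PND8, a ratio of 84.5 (95% interval 14.8 to 3370), with fitted values of 5.20 and 8.43 without adult replicates 1 and 2. Arid3b, a chromatin protein, fell from 164 and 152 CPM to 88.3 and 68.4 CPM (log2 fold change −1.01, SE 0.161, adjusted p 0.000174). Repopulating Ki67-positive libraries had 0.116 and 0 CPM of Lin28b, so both genes were low in adult cells whether resting or repopulating.

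Mrc1, the mannose receptor and a marker of border macrophages (NM_008625, chr2:14229414-14332023, plus strand), had 49.7 and 52.7 CPM in adult, 834 and 814 CPM at PND8 and, in repopulating Ki67-positive cells, 41.3 and 33.7 CPM. It rose by 4.01 (SE 0.153, adjusted p 5.64e-10). Of 7 border macrophage markers tested, 3 were called higher, Mrc1 and Pf4 among them, and 0 lower, beside 25.1% and 24.3% of all genes. Apart from Mrc1, these markers were low in every library of the comparison. Pf4 had 1.85 and 2.2 CPM in adult and 3.74 and 8.67 CPM at PND8. F13a1 had 4.51 and 8.8 CPM in adult and 8.15 and 8.55 CPM at PND8, and Cd163 had 4.05 and 8.31 CPM in adult and 2.31 and 3.47 CPM at PND8. Of these 3, Pf4 was called at 1.61 (SE 0.482, adjusted p 0.0138), 0.89 and not called without PND8 replicate 2, and not called without either adult replicate. Cd163, at a log2 fold change of −1.09, was −1.52 without adult replicate 1 and −0.48 without adult replicate 2. It was called lower when only the 4 libraries compared were fitted and with no filter on low counts.

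**Figure D3:**
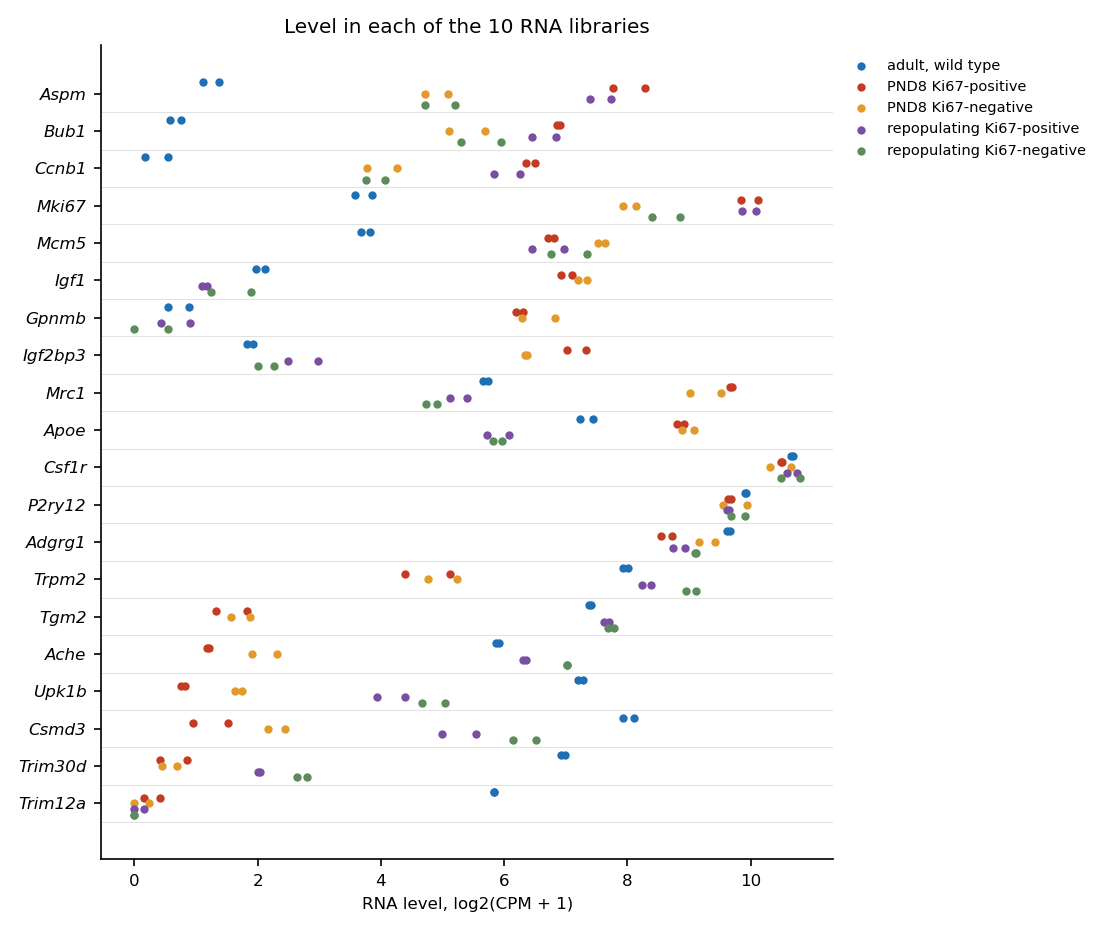
RNA level as log2(CPM + 1) (x axis) of 20 genes (y axis) in each of the 10 RNA libraries, 1 point per library and 1 colour per group. Mki67 and Aspm are high in both Ki67-positive groups, and their PND8 Ki67-negative levels lie between adult and PND8 Ki67-positive. Igf1, Gpnmb and Mrc1 are high in both PND8 groups, and Trim12a in the wild-type adult libraries.

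The 12 largest falls are described as 3 kinds, which were not sharply apart. In repopulating Ki67-positive cells, 10 of the 12 were called lower and 2 higher than in adult, where 21.0% and 23.9% of all genes were. Genes of the first kind were low at PND8 and higher in repopulating cells than at PND8. Tgm2 and Ache were the 2 above adult there, and the rest of this kind lay below adult. In repopulating cells Adcy8, of this kind, was close in level to Trim30d of the second. Trim30d and Trim5, both of the second kind, were also higher in repopulating cells than at PND8. Of the 12, 7 were called lower at PND8 than in repopulating Ki67-positive cells, where 16.7% of all genes were. Choosing genes for low PND8 levels favours such calls. Tgm2, a transglutaminase that cross-links proteins (NM_009373, chr2:158116405-158146392, minus strand), had 165 and 169.6 CPM in adult and 2.53 and 1.5 CPM at PND8, a change of −6.35 (SE 0.162, adjusted p 5.13e-11), and 196 and 207 CPM in repopulating Ki67-positive cells, from which PND8 differed by −6.62 (SE 0.162, adjusted p 2.82e-11). Ache, the enzyme that breaks down acetylcholine, had 57.6 and 59.5 CPM in adult, 1.32 and 1.27 CPM at PND8 (log2 fold change −5.48, SE 0.181, adjusted p 1.85e-10) and 80.7 and 78.2 CPM in repopulating cells. Csmd3, a large membrane protein with complement control domains (NM_001081391, chr15:47580638-48791989, minus strand), had 276 and 242 CPM in adult and 1.87 and 0.925 CPM at PND8, a change of −7.51 (SE 0.272, adjusted p 3.38e-10), −8.10 without PND8 replicate 1, and 45.8 and 30.9 CPM in repopulating cells. Upk1b, a tetraspanin, had 154 and 146 CPM in adult and 0.771 and 0.694 CPM at PND8, a change of −7.65 (SE 0.247, adjusted p 1.66e-10), with 20.0 and 14.4 CPM in repopulating cells. The adenylyl cyclase gene Adcy8 had 26.3 and 20.5 CPM in adult and 0.33 and 0.231 CPM at PND8, a change of −6.30 (SE 0.457, adjusted p 1.45e-07), with 5.9 and 3.45 CPM in repopulating cells. In the PND8 Ki67-negative libraries Tgm2 had 1.98 and 2.66 CPM and Csmd3 4.46 and 3.49 CPM, so at that age the low level was seen in both Ki67 states.

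Genes of the second kind were low in every library from the reporter line. Trim12a, of a family that restricts retroviruses (NM_023835, chr7:104299897-104315495, minus strand), had 56.3 and 56.2 CPM in the wild-type adult libraries and 0.33 and 0.116 CPM at PND8. Its log2 fold change of −7.87 (SE 0.402, adjusted p 1.42e-08) was −8.75 without PND8 replicate 1, and it had 0 and 0.183 CPM in PND8 Ki67-negative and 0.116 and 0 CPM in repopulating Ki67-positive libraries. Trim30d (NM_199146, chr7:104470014-104507849, minus strand) had 126 and 120.4 CPM in adult, 0.33 and 0.809 CPM at PND8 (log2 fold change −7.73, SE 0.245, adjusted p 1.5e-10, and −8.47 without PND8 replicate 2) and 3.12 and 3.02 CPM in repopulating libraries. Trim5 (NM_001310602, chr7:104264448-104288106, minus strand) had 23.9 and 24.7 CPM in adult, 0.551 and 0.231 CPM at PND8 (log2 fold change −5.89, SE 0.415, adjusted p 1.06e-07, and −6.62 without PND8 replicate 1) and 1.73 and 1.87 CPM in repopulating libraries. These 3 genes lie in a cluster of relatives on chromosome 7, where reads can match more than 1 copy, so the split of counts among them is uncertain. Abhd14b, a hydrolase (NM_029631, chr9:106448640-106452918, plus strand), had 32.3 and 31.8 CPM in adult, 0.551 and 0.116 CPM at PND8 and, in repopulating libraries, 0.694 and 0.576 CPM. Its change of −6.51 (SE 0.526, adjusted p 4.09e-07) was −7.94 without PND8 replicate 1 and −5.82 without PND8 replicate 2. For these 4 genes the levels went with the genotype on the labels across all 10 RNA libraries, and age and genotype cannot be told apart in the present comparison.

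The third kind were granule and secreted genes of neutrophils. Ngp had 83.4 and 20.2 CPM in adult and 0.771 and 0.694 CPM at PND8, a change of −6.12 (SE 0.707, adjusted p 1.13e-05), −4.75 without adult replicate 1 and −6.80 without adult replicate 2. Ltf had 57.7 and 11.1 CPM in adult and 0.771 and 1.16 CPM at PND8, a change of −5.15 (SE 0.762, adjusted p 0.000137), −3.51 without adult replicate 1 and −5.89 without adult replicate 2. Chil3 had 21.4 and 5.01 CPM in adult and 0.22 and 0.231 CPM at PND8, a change of −5.79 (SE 0.907, adjusted p 0.000295), −4.39 without adult replicate 1 and −6.48 without adult replicate 2. In all 3 adult replicate 1 stood several times above adult replicate 2, so these levels varied among adult libraries. Of 8 monocyte and neutrophil markers tested 7 fell and Plac8 rose.

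Genes that mark resting microglia were lower on balance. Of 27 homeostatic microglia genes 16 fell and 1 rose (0 without PND8 replicate 2 or either adult replicate), with a median log2 fold change of −0.34, and summed CPM was 19270 and 19500 in adult and 15230 and 14890 at PND8. Csf1r, the receptor on which microglia depend for survival, was not called, with 1613 and 1643 CPM in adult and 1458 and 1439 CPM at PND8 (log2 fold change −0.17, SE 0.124, adjusted p 0.278). P2ry12, the ADP receptor of resting microglia, had 967 and 963 CPM in adult and 819 and 793 CPM at PND8 and was not called (log2 fold change −0.26, SE 0.117, adjusted p 0.0813). Tmem119, a microglial surface protein, fell from 776 and 794 CPM to 502 and 494 CPM (log2 fold change −0.66, SE 0.107, adjusted p 0.000223). Adgrg1, an adhesion receptor of yolk sac derived microglia, fell from 785 and 807 CPM to 423 and 374 CPM (log2 fold change −0.998, SE 0.104, adjusted p 4.35e-06), Selplg, a ligand of selectins, from 861 and 858 CPM to 479 and 445 CPM (log2 fold change −0.89, SE 0.111, adjusted p 2.13e-05), and Slc2a5, the fructose transporter, from 411 and 429 CPM to 238 and 219 CPM (log2 fold change −0.88, SE 0.0874, adjusted p 2.87e-06). Apart from Upk1b, described above, the falls were small on this scale. The most abundant of these genes hold over 2 counts per base and could be held down by the cap of 3 tags per position. The 65 tested genes over that mark had a median absolute log2 fold change of 0.259 beside 0.422 for the other 12131 genes of at least 300 bases.

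Transcription factors of the lineage moved both ways. Of 21 tested 4 rose and 11 fell, with a median of −0.33, and the 4 rises became 2 without PND8 replicate 2 or adult replicate 1. Cebpa, a myeloid factor, fell from 364 and 386 CPM to 208 and 213 CPM (log2 fold change −0.83, SE 0.0924, adjusted p 7.7e-06), and Smad3, which carries TGF-beta signals to the nucleus, from 319 and 337 CPM to 204 and 201 CPM (log2 fold change −0.70, SE 0.084, adjusted p 1.63e-05). Tfec, a relative of MITF, rose from 1.62 and 1.1 CPM to 17.5 and 12.3 CPM (log2 fold change 3.43, SE 0.361, adjusted p 4.68e-06) and Klf4 from 5.2 and 5.74 CPM to 14.2 and 16.9 CPM (log2 fold change 1.503, SE 0.211, adjusted p 6.56e-05). Sall1 and Mef2c, both needed for microglial identity, were not called, with log2 fold changes of −0.18 (SE 0.0966) and 0.045 (SE 0.0849). The TGF-beta pathway, of which 15 of 18 listed genes were tested, fell in 9 and rose in 0, with a median of −0.51. Its co-receptor Eng fell from 319.7 and 322 CPM to 142 and 137 CPM (log2 fold change −1.21, SE 0.0807, adjusted p 6.53e-08), and the feedback inhibitors Smad7 and Skil, which the pathway itself induces, had log2 fold changes of −1.09 (SE 0.104, adjusted p 1.95e-06) and −0.78 (SE 0.107, adjusted p 5.7e-05). The ligand gene Tgfb1 and its milieu molecule Nrros were not called, at −0.19 (SE 0.0954) and 0.12 (SE 0.097).

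Innate sensing genes were lower at PND8. Of 20 Toll-like receptors and adaptors 15 fell and 0 rose, with a median of −0.69. Tlr3, the sensor of double-stranded RNA, fell from 227 and 217 CPM to 63.4 and 60.2 CPM (log2 fold change −1.84, SE 0.0949, adjusted p 6.37e-09), and Tlr12 from 123 and 117 CPM to 24.7 and 31 CPM (log2 fold change −2.11, SE 0.13, adjusted p 2.87e-08). Tlr5, the flagellin receptor, fell from 105 and 99.3 CPM to 41.6 and 30.6 CPM (log2 fold change −1.500, SE 0.221, adjusted p 9.72e-05), and repopulating Ki67-positive cells had 10.5 and 9.21 CPM, from which PND8 differed by 1.87 (SE 0.267, adjusted p 0.000148). Cd180 and Ly86, which form a receptor related to the Toll family, were not called, at −0.024 (SE 0.102) and 0.11 (SE 0.101).

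Antigen presentation fell in 9 of 18 genes and rose in 1, with a median of −0.26, and the rise was lost without PND8 replicate 2 or either adult replicate. The class II gene H2-Aa had 24.4 and 26.9 CPM in adult and 1.32 and 0.462 CPM at PND8, a change of −4.81 (SE 0.466, adjusted p 2.25e-06), −5.75 without PND8 replicate 1. H2-Eb1, also of class II, had 25.1 and 22.7 CPM in adult and 2.09 and 1.16 CPM at PND8, a change of −3.86 (SE 0.434, adjusted p 8.58e-06). H2-Ab1, which pairs with H2-Aa, fell less, from 21.2 and 29.3 CPM to 10.4 and 8.44 CPM (log2 fold change −1.42, SE 0.286, adjusted p 0.00109). B2m, the light chain of class I, was not called, at 266 and 291 CPM in adult and 289 and 302 CPM at PND8. Class II is also carried by monocytes and by border macrophages. The joint list of monocyte and neutrophil markers summed higher in the adult libraries, with Plac8 going the other way. Border macrophage markers, nearly all of it Mrc1, summed higher at PND8. The part of these cells in the class II difference was not tested. CCAAT letters stood in 12 of 13 promoters of the list (92.3%).

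Interferon response genes rose in 9 of 25 cases and fell in 0, with a median of 0.279. Oas2, a sensor that activates RNA decay, had 10.9 and 11.7 CPM in adult and 34.8 and 46.5 CPM at PND8, a change of 1.84 (SE 0.155, adjusted p 5.81e-07), and Ifi27l2a 2.08 and 3.05 CPM in adult and 20.8 and 33.5 CPM at PND8, a change of 3.40 (SE 0.411, adjusted p 1.68e-05). In repopulating Ki67-positive cells, which differed from adult in 5489 genes (44.9%), the list was higher, with Oas2 at 212 and 218 CPM. All 25 genes were lower at PND8 than there, where 16.7% of all genes were, with a median of −2.40.

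Of 23 cytokine and feedback genes tested 6 rose and 8 fell, beside 25.1% and 24.3% of all genes. Ccr1, a chemokine receptor, rose from 24.3 and 16.3 CPM to 108 and 109 CPM (log2 fold change 2.42, SE 0.143, adjusted p 2.02e-08) and Ccl2, which draws monocytes, from 3.47 and 4.89 CPM to 14.4 and 10.9 CPM (log2 fold change 1.60, SE 0.348, adjusted p 0.00189). Il1a fell from 143 and 115 CPM to 66 and 70.2 CPM (log2 fold change −0.92, SE 0.112, adjusted p 1.67e-05) and Cxcl16 from 54.9 and 66.4 CPM to 26.9 and 38 CPM (log2 fold change −0.90, SE 0.162, adjusted p 0.000464). The growth factor gene Csf1, a ligand of CSF1R, rose from 64.1 and 61.2 CPM to 199 and 182 CPM (log2 fold change 1.60, SE 0.105, adjusted p 5.13e-08), while Csf3r, the receptor of G-CSF, fell from 794 and 820.4 CPM to 384 and 399 CPM (log2 fold change −1.04, SE 0.0919, adjusted p 9.01e-07). Over the 18 tested genes of CSF receptors and the BCL2 family 6 rose and 4 fell. The C1q gene C1qc was not called, with 481 and 494 CPM in adult and 470.4 and 457 CPM at PND8, and over 12 tested complement genes 2 rose and 3 fell. Of the 2, C3, the central component of the cascade, rose from 9.83 and 5.13 CPM to 22.4 and 30.9 CPM (log2 fold change 1.82, SE 0.385, adjusted p 0.00155). Itgb2, a chain of complement receptor 3, fell from 409 and 432 CPM to 267 and 249 CPM (log2 fold change −0.70, SE 0.0952, adjusted p 4.7e-05).

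Receptors for debris moved both ways. Of 19 phagocytic and scavenger receptor genes tested 8 rose and 9 fell, and the 8 rises became 4 without PND8 replicate 2 and 5 without adult replicate 2. Axl, a receptor of apoptotic cells, rose from 37 and 41.9 CPM to 99.8 and 142 CPM (log2 fold change 1.61, SE 0.234, adjusted p 8.37e-05), and its ligand Gas6 from 263 and 256 CPM to 583 and 589 CPM (log2 fold change 1.18, SE 0.0856, adjusted p 1.49e-07). Mertk, the related receptor, fell from 877 and 877 CPM to 479.7 and 448 CPM (log2 fold change −0.92, SE 0.106, adjusted p 1.15e-05), and Havcr2, a checkpoint receptor also known as TIM-3, from 335 and 336 CPM to 170.0 and 180.1 CPM (log2 fold change −0.94, SE 0.0846, adjusted p 1.13e-06). Of 30 lysosomal genes 12 rose and 5 fell (median 0.12). The 12 rises became 7 without adult replicate 1, and the 5 falls became 3 without PND8 replicate 2 and 2 without any other of the 4 libraries. Gla, alpha-galactosidase, rose from 6.59 and 7.09 CPM to 23.2 and 25.7 CPM (log2 fold change 1.84, SE 0.274, adjusted p 0.000107), Gusb, beta-glucuronidase, from 266 and 283 CPM to 481 and 505 CPM (log2 fold change 0.85, SE 0.112, adjusted p 3.97e-05), and Ctsh, a cathepsin, fell from 236 and 237 CPM to 87.2 and 95.4 CPM (log2 fold change −1.37, SE 0.102, adjusted p 1.81e-07). E-box letters stood in 5 of 22 lysosomal promoters (22.7%) beside 1.99% of all.

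Ion channels and purinergic receptors, the means by which microglia sense their surroundings, moved both ways. Of 15 ion channel genes 6 rose and 8 fell, and of 11 purinergic genes tested of 16 listed 2 rose and 5 fell. The 2 became 1 without PND8 replicate 2 or adult replicate 2, and the 5 became 3 without PND8 replicate 1 or adult replicate 1. Trpm2, a calcium channel opened by oxidative stress, had 256 and 242 CPM in adult and 33.8 and 20.1 CPM at PND8, a change of −3.20 (SE 0.189, adjusted p 1.98e-08), with 301 and 333 CPM in repopulating Ki67-positive cells. Kcnj2, an inward rectifier potassium channel, fell from 225 and 177 CPM to 60.2 and 73.3 CPM (log2 fold change −1.59, SE 0.136, adjusted p 7.09e-07), and Kcnma1, a calcium-activated potassium channel, from 53.3 and 51.8 CPM to 17.4 and 17 CPM (log2 fold change −1.61, SE 0.226, adjusted p 6.49e-05). Kcnk12, a potassium channel of the leak type, rose from 52.7 and 50.0 CPM to 103 and 98.5 CPM (log2 fold change 0.97, SE 0.122, adjusted p 2.29e-05). P2rx1, an ATP-gated channel, rose from 29.6 and 27.5 CPM to 76.6 and 82.9 CPM (log2 fold change 1.48, SE 0.112, adjusted p 2.24e-07), and Entpd1, the enzyme that breaks down extracellular ATP, fell from 752 and 763 CPM to 499 and 479 CPM (log2 fold change −0.63, SE 0.1001, adjusted p 0.000172).

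Early response genes set the 2 PND8 libraries apart. Fos, an early transcription factor, had 50.8 and 64.2 CPM in adult and 170.1 and 14.2 CPM at PND8, and was not called. Its log2 fold change of 0.69 was −2.01 without PND8 replicate 1 and 1.57 without PND8 replicate 2, called in opposite directions. Egr1, another, had 65.8 and 66.6 CPM in adult and 355 and 32 CPM at PND8 and was not called, at 1.55, with −1.04 and 2.42 without PND8 replicates 1 and 2, the second of them called. With 1 added to each CPM, 10 genes differed by over 4-fold between these replicates against 3 in adult. The most extreme was Prkd1, a protein kinase, at 0 CPM in PND8 replicate 1 and 40.2 CPM in PND8 replicate 2, whose level in the group rests on 1 library. Ier3 had 11.6 and 5.74 CPM in adult and 63.7 and 15.5 CPM at PND8 and was called at 2.19 (SE 0.615, adjusted p 0.00958), but its value was 0.84 and not called without PND8 replicate 1, 2.88 without PND8 replicate 2 and 2.78 without adult replicate 1, and it was not called without adult replicate 2. Btg2 and Socs3, which brake the cycle and cytokine signals, fell in both libraries, from 218 and 243 CPM to 83.5 and 76.8 CPM (log2 fold change −1.52, SE 0.0938, adjusted p 2.87e-08) and from 53.8 and 53.3 CPM to 29.7 and 27.5 CPM (log2 fold change −0.90, SE 0.119, adjusted p 3.74e-05). Of the 21 genes of immediate early and heat shock response 4 rose and 7 fell, and the 4 rises became 2 without PND8 replicate 1 or either adult replicate. Slc1a3, a glutamate transporter of astrocytes, was at 38.7 and 362 CPM in the PND8 libraries and 233 and 243 CPM in adult. It was not called, and no direction can be read from it: without PND8 replicates 1 and 2 in turn it was at 0.61 and −2.62 on the log2 scale.

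In deposited TPM, which is scaled by transcript length and lets genes be compared, the 8 largest gains among called genes were Cfl1, D17H6S56E-5, H2afx, Igfbp4, Mrc1, Spp1, Gas6 and Apoe. Apoe went from 188 and 217 TPM in adult to 600.3 and 550.5 TPM at PND8, and Cfl1, the actin-severing protein cofilin, from 251 and 254 to 419.5 and 473 TPM. Igfbp4, which binds insulin-like growth factors, went from 50.1 and 48.6 to 278 and 266 TPM. Among the 8 largest losses were Cst3, Olfml3, Csf3r, Adgrg1, Selplg and Tmem119. Cst3, a secreted inhibitor of cathepsins and the gene with the highest count per base (6.35), went from 1109 and 1129 to 718 and 654 TPM.

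H3K27ac, a mark of active promoters and enhancers, was read in separate cells as regions that the authors called in each library, against input. A gene was counted as marked where a region lay within 1 kb of its transcript start. The 2 PND8 libraries listed 26962 and 30321 regions and the 2 adult libraries 19572 and 24903. Both PND8 libraries and neither adult library had a region at 684 of 12230 starts (5.59%), at 312 of 3073 genes called higher (10.2%) and at 78 of 2976 called lower (2.62%). The share was higher in classes of larger RNA rises, from 4.70% of genes with a log2 fold change between 0 and 1 to 12.8%, 20.9% and 27.1% in the 3 classes above. The reverse, a region in both adult and neither PND8 library, was seen at 6 genes, all called lower and 4 of them with a log2 fold change of at most −3. The PND8 lists were longer, and with the same number of regions from each list the counts for PND8 were 206 of the genes called higher (6.70%) and 53 of those called lower (1.78%), beside 3.31% of all genes tested. For adult they were then 19 (0.618%) and 62 (2.08%), beside 1.38% of all. Without adult replicate 2 the PND8 counts were 590 called higher (19.2%) and 286 called lower (9.61%), beside 13.1% of all. Without PND8 replicate 2 the adult count was 23 called lower, of 31 genes in all, and without adult replicate 1 it was 38 of 45.

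**Figure D4:**
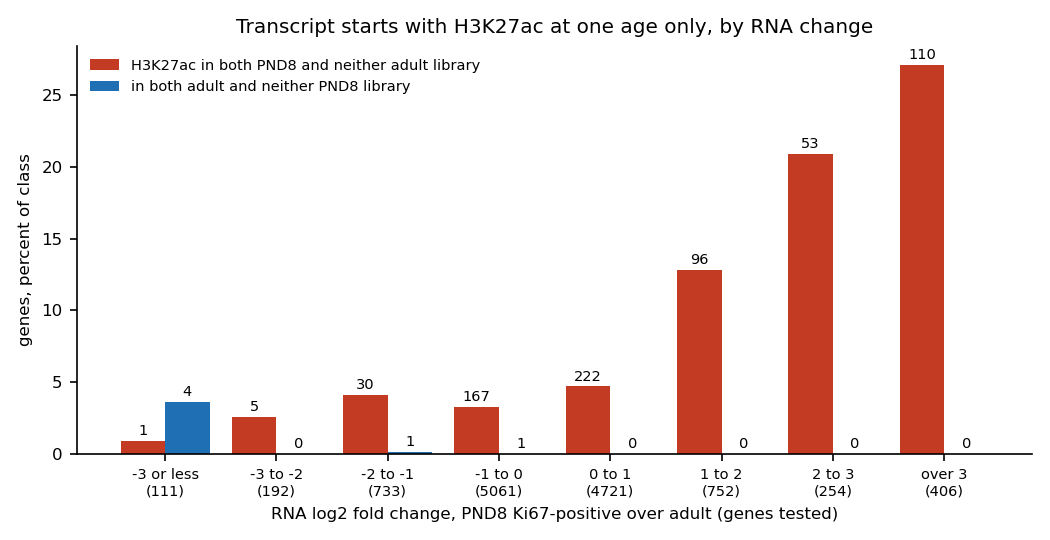
Share of genes in each class of RNA log2 fold change (x axis, number of tested genes in brackets) whose transcript start had an H3K27ac region within 1 kb at one age only (y axis, percent), with the gene count above each bar. Red bars, both PND8 and neither adult library, reach 27.1% in the class over 3, and blue bars, the reverse, hold 6 genes in all.

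Single genes showed both patterns. H3K27ac is given as the tags of the authors' regions per 10000000 tags, where 0 stands for no region. At Mki67 the 2 PND8 libraries had 309.7 and 332 tags and the adult libraries no region. The same held at Igf1, with 137 and 197 tags at PND8, at Igf2bp3, with 322 and 264, at Apoe, with 379 and 476, and at Cdkn3, with 165 and 219. Top2a had 159 and 151 tags at PND8 and 0 and 16.7 in adult. Mcm5 had 116 and 162 tags at PND8 and 31 and 23.8 in adult. Among the 4 promoters printed above, these 3 thus had more tags in both PND8 libraries. The fourth, Gla, had 229 and 227 tags at PND8 and 225 and 232 in adult. Gla rose in RNA with H3K27ac at its start in all 4 libraries. Csmd3, low at PND8 in RNA, had no region at PND8 and 61.6 and 315 tags in adult, and Upk1b had none at PND8 and 0 and 94.7 tags in adult. The genes low in every reporter library had H3K27ac regions at both ages. Of all genes called lower, 71.6% had a region in all 4 libraries and 0.202% in the adult libraries only. Trim12a had 139 and 181 at PND8 and 156 and 155 in adult, and Trim30d 73.5 and 92.7 at PND8 and 82.6 and 109 in adult. Trim5 had 71.1 and 119 at PND8 and 47.6 and 82.5 in adult, and Abhd14b 51 and 113 at PND8 and 0 and 106 in adult. In each of these 4 genes the H3K27ac values of the groups overlapped. Their RNA values did not, but separate RNA values were a condition for being named among the largest falls. The cause was not tested.

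**Figure D5:**
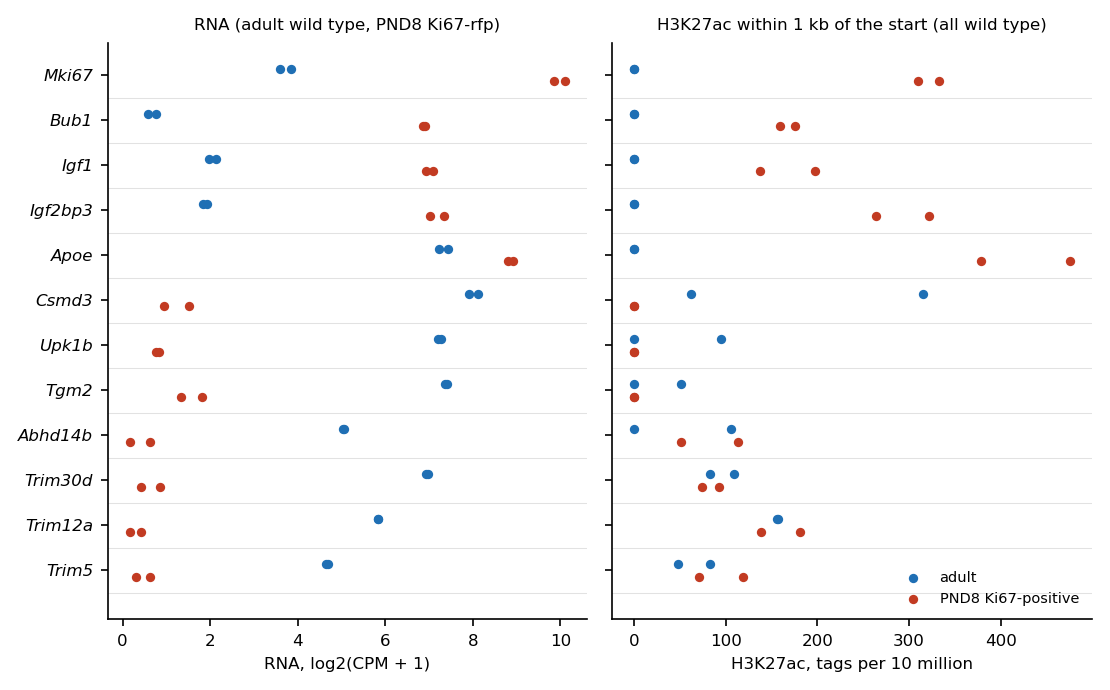
RNA level as log2(CPM + 1) (left x axis) and H3K27ac within 1 kb of the transcript start as tags per 10000000 (right x axis) of 12 genes in the adult (blue) and PND8 Ki67-positive (red) libraries, 1 point per library. The lower 4 genes, Abhd14b, Trim30d, Trim12a and Trim5, were chosen for separate RNA values, and their H3K27ac values overlapped.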

How the data were processed

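RNA-seq counts, TPM and H3K27ac regions of microglia were used. Counts were deposited without normalization: per the labels, the authors counted tags over the exons of 1 mm10 transcript per gene with HOMER and kept at most 3 tags per position, which can hold down abundant genes. The deposited TPM values are scaled by transcript length. Per the file headers, the authors called H3K27ac regions in each library against input, and each carries its signal as tags per 10000000 and a peak score, used only to rank regions where lists were cut to equal length. The submitters' processing notes name STAR 2.7.0f, Bowtie2 2.3.4.1 and HOMER 4.11.

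Genes passing edgeR's filterByExpr were fitted over all 10 RNA libraries (edgeR 4.0.16, TMM, quasi-likelihood, Benjamini-Hochberg, adjusted p under 0.05). Total counts of the 4 libraries were 8219620 to 8816931, and intervals cover counting error only. Replicates correlated at r = 0.989 (PND8) and 0.990 (adult) across genes. On simulated counts for this comparison, over 11997 genes, 84 of 98 genes changed by 2-fold and 96 of 98 changed by 4-fold were recovered, with 13 false calls. The simulated spread followed the fitted trend alone, and 196 genes were changed. In the data 6049 of 12230 genes were called and some replicates were discordant, so these figures need not hold there. Alternatives used DESeq2 1.42.0, limma 3.58.1 and edgeR. The members and gene lists were chosen with earlier results of these data known. Named genes are the 12 largest called rises and falls with separate groups and a mean of at least 10 CPM, the 8 largest gains and losses in TPM, up to 4 called members per list and direction, the most abundant members not called, and a panel of 9 genes. Egr1, Fos, Lpl and Prkd1 were named after their values were seen. Some genes that this rule names are not reported here.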

Additional observations from a re-analysis of the deposited data

Results flagged for a closer look

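Differences between groups were tested by edgeR's quasi-likelihood test in 46 genes named for the size of their change or in the panel. Between Ki67-positive and Ki67-negative PND8 cells 20 differed, beside 5.90% of all genes tested. Between PND8 and repopulating Ki67-positive cells 21 differed, beside 30.9% of all. Most of the 46 were picked for large changes in the same PND8 Ki67-positive libraries, so these counts cannot be read as a result about the genes. In 5 of the 46 the directions against adult were opposite in PND8 and repopulating Ki67-positive cells. Tgm2 was lower than adult at PND8 and higher in repopulating cells, with −6.62 (SE 0.162, adjusted p 2.82e-11) between the 2 Ki67-positive groups. Ache had the same pattern, with −5.92 (SE 0.178, adjusted p 1.13e-10). Apoe, Gas6 and Mrc1 were higher than adult at PND8 and lower in repopulating cells, with 2.97 (SE 0.128, adjusted p 2.45e-09), 1.93 (SE 0.0884, adjusted p 3.96e-09) and 4.45 (SE 0.159, adjusted p 3.71e-10). The comparisons share the adult libraries.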

How the results depend on the processing

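The number of genes called was between 4508 and 6866 under 13 of 14 alternatives, against 6049. Leaving out a PND8 replicate gave 4614 to 4746 (2462 to 2502 higher and 2152 to 2244 lower), and leaving out an adult replicate 4508 to 4574 (2316 to 2376 higher and 2192 to 2198 lower). A required fold of at least 2 gave 1055 genes (653 higher, 402 lower), 61.9% of them higher against 50.8%, and 133 of the list genes in place of 369. Replicate numbers are shared between the groups but did not pair the samples (correlation of deviations −0.0035), and the fit with the replicate block called 6539. PND8 Ki67-positive and Ki67-negative libraries of the same number did deviate together (0.344). A block for the PND8 libraries, chosen after seeing the data, called 1138 genes between them in place of 721 (492 higher, 646 lower), all 721 included, and a block for all 10 libraries 1228 (527 higher, 701 lower). DESeq2 called 5489. Of 52 list counts, 6 moved by over 1.5 times with only the 4 libraries compared, 40 with the required fold, and 7 to 9 without 1 library. With only the 4 libraries, cytokine falls were 13 in place of 8 and falls of CSF receptors and the BCL2 family 7 in place of 4. Of 122 named genes called, 78 were called under every alternative and 40 lost the call only with the required fold.

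For H3K27ac at transcript starts in PND8 libraries only, genes called higher numbered 206 with equal region numbers and 590 without adult replicate 2, against 312 as reported and 306 to 384 under the others. Genes called lower numbered 121 without PND8 replicate 1 and 286 without adult replicate 2, against 78 as reported and 53 to 100 under the others. In adult libraries only, genes called higher numbered 1 within 500 bp, 19 with equal region numbers and 2 without PND8 replicate 2, against 0 as reported and under the others. Genes called lower numbered 62 with equal region numbers, 23 without PND8 replicate 2 and 38 without adult replicate 1, against 6 as reported and 6 to 8 under the others. Without PND8 replicate 1, Fos reversed, to −2.01, and without PND8 replicate 2 it was 1.57. The cause was not tested.

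Each group held 2 libraries, a count of 3 was 0.33 to 0.367 CPM, and folds against genes with few adult counts are set by those counts.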
